A study of Mus musculus with 28 samples.

Results

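The frontal cortex of male C57Bl/6 mice was compared between social and metabolic stress by asking, gene by gene, how far the change under chronic social stress differed from the change in a model of type 2 diabetes. All 28 libraries of the series entered this contrast, 1 per mouse, with the 14888 genes that both deposited tables list, of 15263 genes in either. In the first cohort 8 mice (CSS) had been kept in social isolation over 7 weeks and confronted with other mice each day during the last 20 days, and 8 mice (CSS_control) had not; every mouse of this cohort was 21 weeks of age. The second cohort held 6 mice (T2D) that had received 75 mg/kg streptozotocin, a drug that destroys beta cells of the pancreas, and a high-fat diet (43.2% of kcal from fat) for 21 weeks, and 6 mice (T2D_control) that had not; their age was 30 or 31 weeks. The labels describe no transgene or other allele in any group. For each gene the contrast is the CSS change (CSS against CSS_control) minus the T2D change (T2D against T2D_control), as a log2 fold change ± its standard error (SE). A positive value means a higher CSS change than T2D change, and a shift between the cohorts that both groups of a cohort share, such as that of age, cancels.

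The frontal cortex holds excitatory pyramidal and inhibitory neurons with their glia and vessels, and takes part in the regulation of emotion and of the hormonal stress axis. Repeated social stress acts on it through glucocorticoids, monoamines and changes in synaptic activity. In diabetes it meets high glucose, altered insulin signalling and changed lipid supply. A cell under stress of either kind can respond through the unfolded protein response, in which chaperones of the endoplasmic reticulum (ER) are induced, through immediate early genes that follow neuronal activity, and through the brakes on growth factor signalling.

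A total of 12 of the 14888 genes (0.0806%) differed between the 2 changes at an adjusted p under 0.05, 7 with a positive contrast (0.0470%) and 5 with a negative one (0.0336%). The positive genes were 9330159F19Rik, Spred1, Snora74a, Igsf9b, Cdh19, Dnajc3 and Sgsm1, and C2cd2l, Coro1b, Sh3bgrl2 and Gpr12 were among the negative ones. All 12 had the same adjusted p of 0.0485, close to the threshold. Without adjustment, 1840 genes (12.4%) were under 0.05, 893 positive (6.00%) and 947 negative (6.36%). In the same fit the CSS change passed for 506 genes (3.40%), 186 higher (1.25%) and 320 lower (2.15%), and without adjustment for 1299 (8.73%) and 1509 (10.1%). These calls ran from 181 to 681 genes when 1 library was left out, and were 0 with CSS_control 5 to 8 alone (1532 at an unadjusted p under 0.05) and 784 with CSS_control 1 to 4 alone. In that fit the T2D change passed for 0 genes, with a smallest adjusted p of 0.227; 1330 genes (8.93%) had an unadjusted p under 0.05 for T2D, 655 higher (4.40%) and 675 lower (4.53%), and DESeq2 called 5. The median SE of the contrast over all genes was 0.147 on the log2 scale, against 0.0963 for the CSS change and 0.111 for the T2D change.

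**Figure D1:**
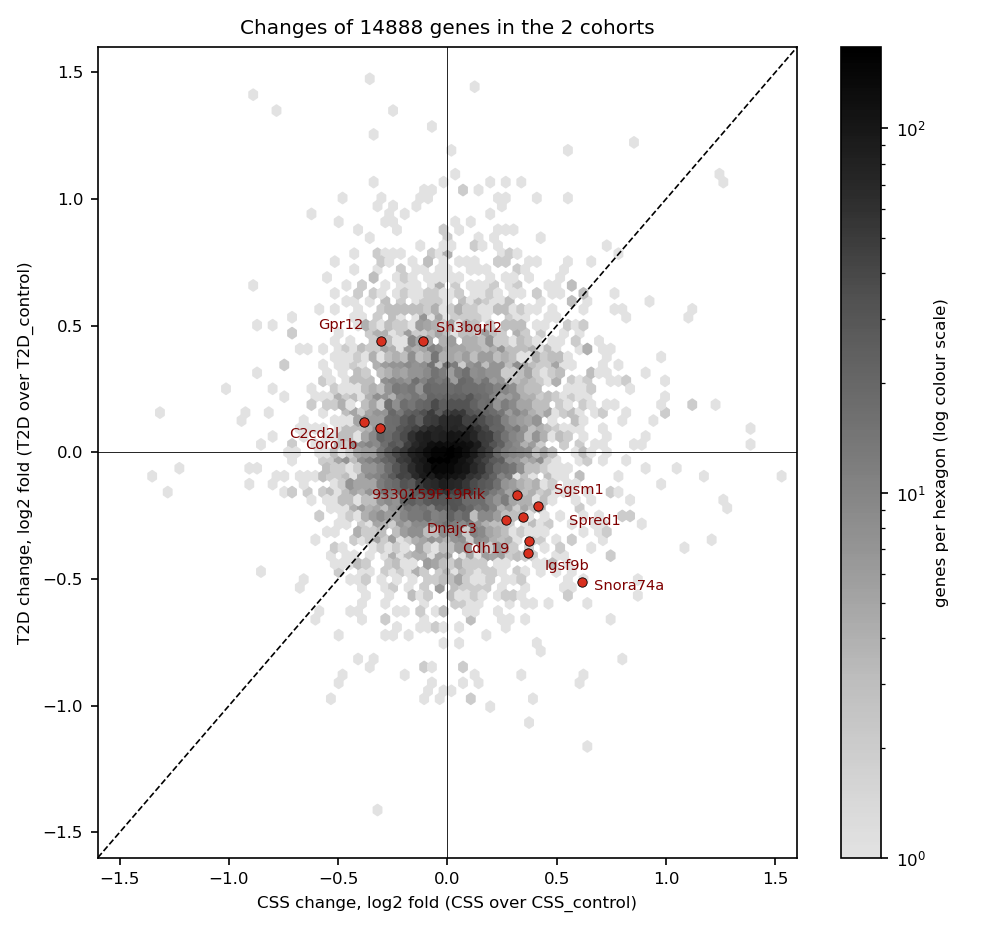
The T2D change (vertical, log2 fold) against the CSS change (horizontal, log2 fold) of the 14888 genes as hexagons shaded by the number of genes; 7 genes lie outside the axes. Of the 12 genes called in the contrast, 11 are marked (red); they lie in the 2 quadrants of opposite sign, away from the dashed line of equal change.

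The calls were not stable. Leaving out 1 library at a time left between 0 and 32 calls, and 0 in 19 of the 28 fits. The count was 2, 12 and 15 without CSS replicates 2, 4 and 7, 21 and 10 without CSS_control replicates 6 and 8, 7 and 32 without T2D replicates 3 and 6, and 6 and 31 without T2D_control replicates 2 and 3. It was 0 without any one of the others. DESeq2 called 103 genes and a fit of each cohort by itself 138, both with the 12 among them. For the separate fits p came from a normal distribution, unlike in the joint fit, so the 138 is not a comparable count. Limma-voom called 0, with 1819 genes at an unadjusted p under 0.05. The sign of the contrast of each of the 12 genes was the same in all 46 alternatives. These reuse the libraries that chose the 12 for large contrasts, so a kept sign was to be awaited and is no evidence of stability. The choice of CSS controls also moved the count. With CSS_control 5 to 8 alone it was 0 (1001 at an unadjusted p under 0.05), and with CSS_control 1 to 4 alone, whose titles carry another code, 150, of which 10 were among the 12.

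**Figure D2:**
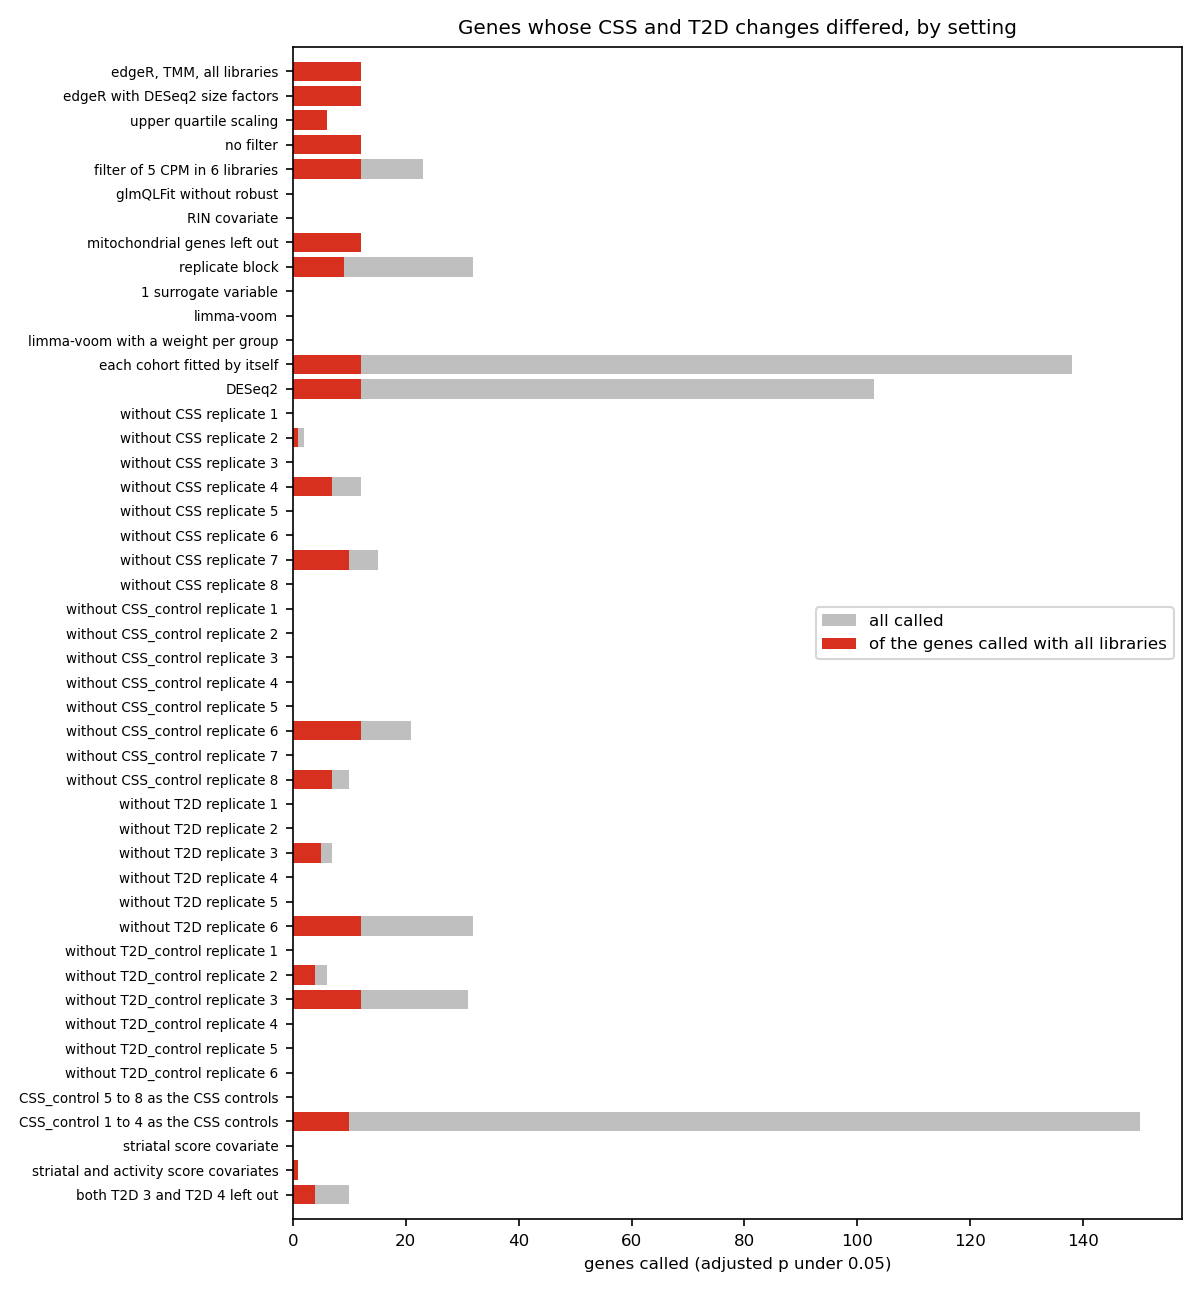
Number of genes called in the contrast (adjusted p under 0.05) under each setting, in grey, with those that are among the 12 in red. The counts run from 0 to 150, and many of the fits that leave out a single library have no call.

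Some libraries stood apart in markers of neighbouring tissue. T2D replicate 3 had the lowest Neurod6 of all 28 (15.7 CPM, that is, counts per M counts), a transcript of cortical excitatory neurons, and the highest Cdhr1 (50.5 CPM), a marker of olfactory bulb neurons. T2D replicate 4 had the highest Prkcd and Tcf7l2 (55.7 and 10.2 CPM), both known from thalamus, and the lowest Drd1 and Drd2 (15.1 and 3.08 CPM), dopamine receptors of striatal neurons. Without both libraries 10 genes were called, 4 of them among the 12. The frontal cortex label was met in the other markers: Slc17a7 lay between 364 and 819 CPM and Gad1 between 239 and 586 CPM over the 28 libraries. The libraries held 12.1 to 37.5 M estimated counts in the listed genes, and the RNA integrity number (RIN) lay between 8.5 and 10.0. Its difference from the controls was 0.10 in CSS and -0.317 in T2D (difference of the 2 differences 0.417, two-sided exact permutation test, p = 0.140, adjusted p = 0.279 over 4 library values). With RIN as a covariate 0 genes were called, and 1545 had an unadjusted p under 0.05.

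Among genes of signalling, Spred1 (chr2:117121374-117182279, plus strand, GRCm38) encodes an inhibitor of the Ras-MAPK pathway. Its level was 212, 235 and 255 CPM (lowest, median and highest library) in CSS_control and 259, 297 and 360.2 CPM in CSS. These ranges did not overlap. In T2D_control it was 262, 301 and 377 CPM and in T2D 232, 243 and 332 CPM, with overlap, and 5 of 6 T2D mice were below the mean of their controls. The CSS change was 0.35 (adjusted p = 0.0118), the T2D change -0.26 (adjusted p = 0.45) and the contrast 0.60 ± 0.12 (95% interval 0.37 to 0.84), a ratio of the 2 fold changes of 1.52.

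Gpr12 (chr5:146582398-146585239, minus strand), an orphan receptor that raises cyclic AMP, went the other way. It lay at 15.1, 16.8 and 17.9 CPM in CSS_control and at 11.2, 13 and 16.7 CPM in CSS. In T2D_control it was 8.37, 11.8 and 14.2 CPM and in T2D 12.1, 16 and 17.9 CPM. Both pairs of groups overlapped, yet 7 of 8 CSS mice were below and 6 of 6 T2D mice above the mean of their controls. The contrast of -0.74 ± 0.15 (95% interval -1.06 to -0.43) came from 2 changes of which neither passed by itself (CSS -0.30, adjusted p = 0.0847; T2D 0.44, adjusted p = 0.377).

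Of the genes of adhesion and membranes, Igsf9b (chr9:27299204-27357546, plus strand) encodes an adhesion protein of inhibitory synapses. Its level was 150.2, 173 and 199 CPM in CSS_control and 172, 223 and 311 CPM in CSS, against 225, 251 and 342 CPM in T2D_control and 175, 195 and 246 CPM in T2D. Of the CSS mice 7 of 8 were above and of the T2D mice 6 of 6 below the mean of their controls, and the highest T2D_control library, replicate 6, stood far above the other 5. The contrast was 0.77 ± 0.15. Cdh19 (chr1:110888326-110977584, minus strand), a cadherin of cell contacts, was low in all groups. It lay at 9.20, 11.1 and 13.2 CPM in CSS_control and 12.2, 14.3 and 17.8 CPM in CSS. In T2D_control it was 12.4, 14.6 and 17.8 CPM and in T2D 8.93, 11.8 and 14 CPM. Every CSS mouse was above and every T2D mouse below the mean of its controls, though the ranges overlapped, and the contrast was 0.72 ± 0.15.

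C2cd2l (chr9:44309237-44320285, minus strand) encodes a lipid transfer protein at contacts between the ER and the plasma membrane, known from the insulin secretion of beta cells. It fell from 135, 149 and 178 CPM in CSS_control to 108, 118 and 129 CPM in CSS, without overlap (CSS change -0.38, adjusted p = 0.00196). In T2D_control it was 108, 118 and 144 CPM and in T2D 129, 135 and 141 CPM, where all 6 mice were above the mean of controls that spread widely (T2D change 0.12, adjusted p = 0.65). The contrast was -0.50 ± 0.10. Coro1b (chr19:4148619-4154035, plus strand), a coronin that binds actin filaments, had 44.1, 51.2 and 56.4 CPM in CSS_control and 38.2, 41.6 and 44.9 CPM in CSS. It had 39.5, 40.2 and 41.8 CPM in T2D_control and 39.2, 43.1 and 47.7 CPM in T2D. All 8 CSS mice were below the mean of their controls, and the contrast of -0.40 ± 0.082 was the smallest in size of the 12. Ptprcap covers 13.5% of its exon bases on the same strand, so part of its reads could be shared.

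Sgsm1 (chr5:113243220-113310786, minus strand), a protein that interacts with small GTPases of the Rab and Rap families, had 71.6, 86.5 and 103 CPM in CSS_control and 88.1, 117 and 135 CPM in CSS. In T2D_control it had 109.8, 133.5 and 158 CPM and in T2D 104, 114 and 137 CPM. The medians of the CSS and the T2D mice were close, while those of the controls were apart. The contrast was 0.63 ± 0.13. Sh3bgrl2 (chr9:83548327-83638801, plus strand) was the exception among the 12 in that its T2D groups did not overlap. It had 26.2, 28.9 and 32.3 CPM in T2D_control and 36.4, 38.5 and 46.7 CPM in T2D, against 30.3, 37.4 and 43.4 CPM in CSS_control and 29.8, 34.0 and 40.0 CPM in CSS. Its T2D change of 0.44 had an adjusted p of 0.227, the smallest of any gene, the CSS change was -0.11 (adjusted p = 0.444) and the contrast -0.55 ± 0.11.

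In the nucleus, Snora74a, a box H/ACA small nucleolar RNA that guides pseudouridylation, had 4.28, 6.08 and 8.90 CPM in CSS_control and 6.64, 9.55 and 11.6 CPM in CSS. It had 8.80, 12.8 and 17.9 CPM in T2D_control and 8.43, 8.93 and 10.2 CPM in T2D. Its contrast of 1.12 ± 0.22 was the largest of the 12 and is uncertain, because 100% of its bases lie within an exon of AC121821.1 on the same strand. The uncharacterised protein-coding gene 9330159F19Rik (chr10:29211606-29230779, plus strand) had 79.0, 82.9 and 88.8 CPM in CSS_control and 93.8, 105 and 112 CPM in CSS, with no overlap. It had 96.5, 108 and 117 CPM in T2D_control and 80.7, 95 and 111 CPM in T2D, and its contrast was 0.49 ± 0.089.

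**Figure D3:**
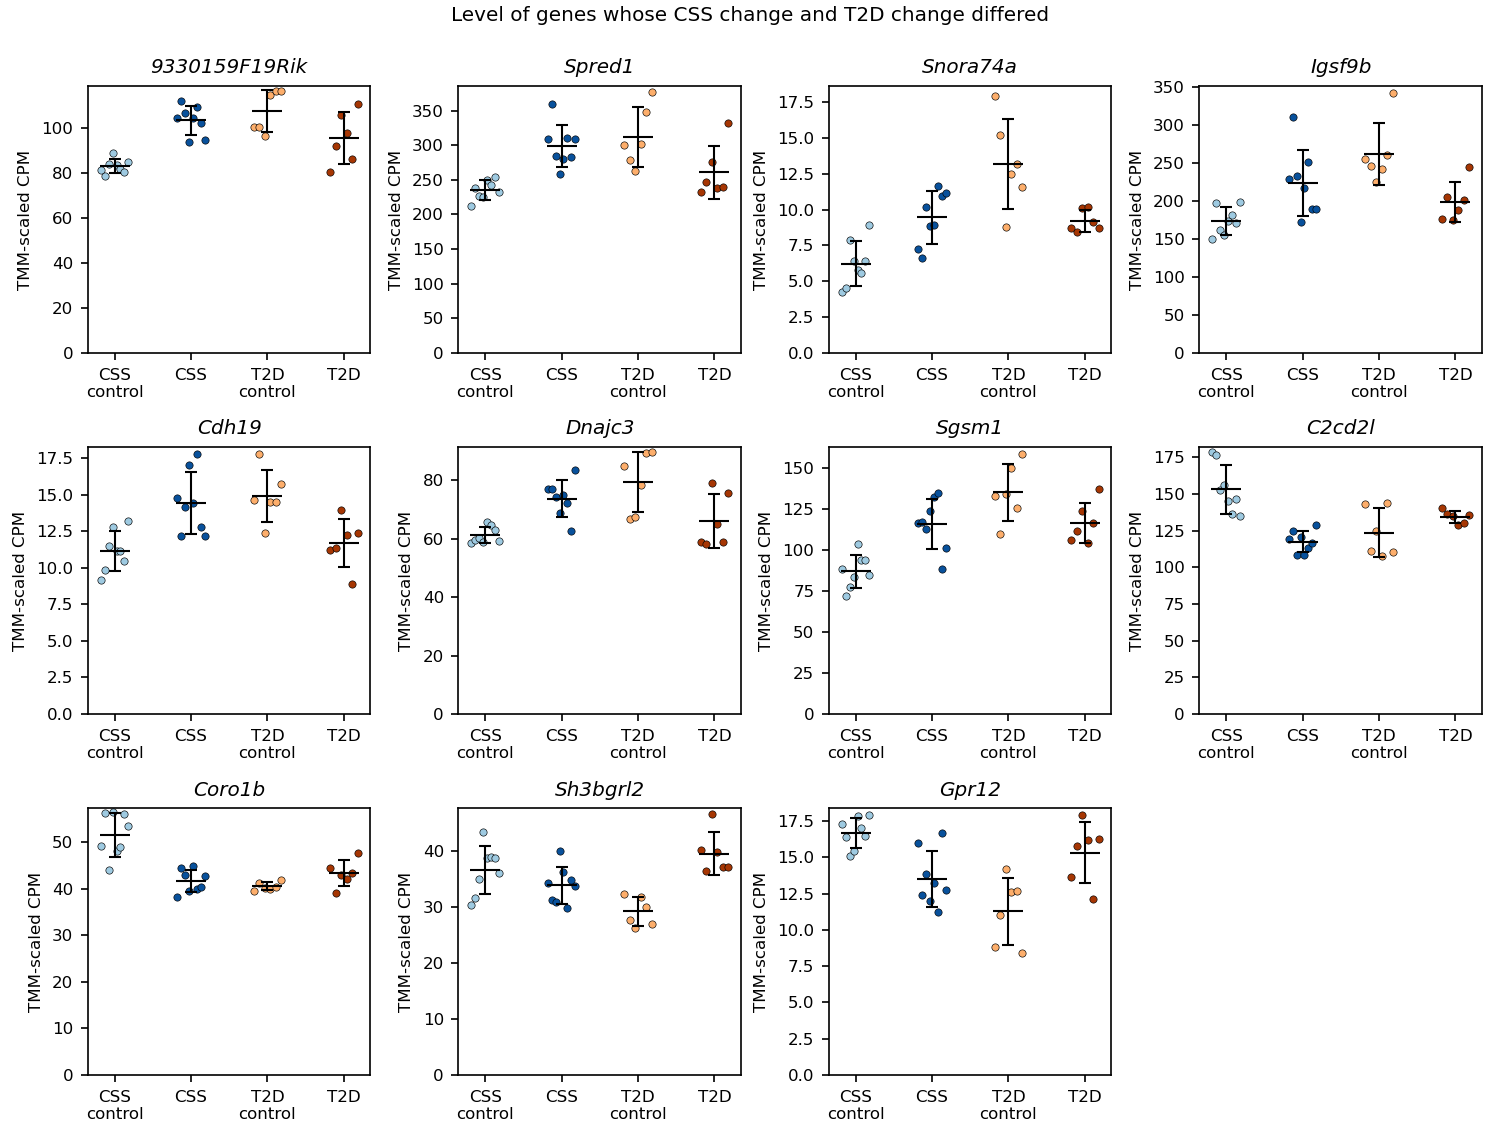
Level of 11 of the 12 genes called in the contrast in each library (vertical axis, CPM after TMM scaling, from 0), by group; points are mice, and the bar and whiskers give the mean ± SD (n = 8, 8, 6 and 6). For each gene the CSS and the T2D change have opposite signs, which choosing genes by the difference of the changes favours. Most pairs of groups overlap, and the CSS change of Sh3bgrl2 is small.

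All 12 genes had CSS and T2D changes of opposite sign, which a choice of genes by the difference of the 2 changes favours: so had 47.7% of all genes and 1641 (89.2%) of the 1840 with an unadjusted contrast p under 0.05. Of the 12, 10 also passed for the CSS change, one of the terms of the contrast (3.40% of all genes), and 0 for the T2D change, although 10 had an unadjusted p under 0.05 for T2D. The CSS change was the larger in size for 9 of the 12 (52.8% of all genes), and 6 of the 12 exceeded a ratio of 1.5-fold (4.97% of all genes). In 3 genes (9330159F19Rik, Spred1, C2cd2l) the CSS groups did not overlap, as in 95 of all genes (0.638%), and in 1 (Sh3bgrl2) the T2D groups, as in 22 of all genes (0.148%). The same libraries chose the 12, so nothing is read from these counts.

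The control groups of the cohorts were themselves apart for these genes. All 12 passed between CSS_control and T2D_control, where 1365 genes (9.17%) passed, and 0 of the 12 between CSS and T2D mice, where 27 genes (0.181%) passed. In 11 of the 12 the difference between CSS and T2D mice was smaller than that between the controls, as it was in 63.5% of all genes. In Spred1, for example, CSS_control minus T2D_control was -0.40 (adjusted p = 0.00289) and CSS minus T2D 0.20 (adjusted p = 0.432). In Sgsm1 these differences were -0.63 and -0.009. Both control groups enter the contrast as well as this comparison, and age and cohort cannot be told apart in a comparison across cohorts.

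The gene Dnajc3 (chr14:118937976-118981697, plus strand) encodes an ER-resident co-chaperone of the Hsp70 protein BiP and is itself a target of the unfolded protein response. Its promoter holds the ER stress element, the motif bound by ATF6 with NF-Y, and so do the promoters of Creld2, Pdia6, Hsp90b1, Canx and Calr, further ER genes whose contrasts are given below and differ in sign. Those of Hspa5 and Syvn1 hold it nearer the start. The bases from -250 to -71 before each start are shown for the first 6 of these genes (RefSeq, build GRCm38.p6), with the motif (CCAAT and CCACG with 9 bases between, either strand) in capitals, to let the matches be compared. They span chr14:118937682-118937861 (plus strand), chr15:88819396-88819575 (plus), chr12:17266339-17266518 (plus), chr10:86705515-86705694 (minus), chr11:50325744-50325923 (minus) and chr8:84847002-84847181 (minus).
Dnajc3: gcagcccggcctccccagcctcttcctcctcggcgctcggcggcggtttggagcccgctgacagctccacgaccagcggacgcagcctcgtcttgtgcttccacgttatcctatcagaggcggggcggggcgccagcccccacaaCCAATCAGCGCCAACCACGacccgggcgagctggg
Creld2: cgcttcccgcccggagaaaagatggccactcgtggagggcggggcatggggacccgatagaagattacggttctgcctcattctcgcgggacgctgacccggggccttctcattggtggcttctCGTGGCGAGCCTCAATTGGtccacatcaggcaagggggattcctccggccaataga
Pdia6: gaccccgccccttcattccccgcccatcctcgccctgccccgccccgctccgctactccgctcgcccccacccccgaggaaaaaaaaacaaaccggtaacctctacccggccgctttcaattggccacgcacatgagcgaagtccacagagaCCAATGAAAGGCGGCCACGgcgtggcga
Hsp90b1: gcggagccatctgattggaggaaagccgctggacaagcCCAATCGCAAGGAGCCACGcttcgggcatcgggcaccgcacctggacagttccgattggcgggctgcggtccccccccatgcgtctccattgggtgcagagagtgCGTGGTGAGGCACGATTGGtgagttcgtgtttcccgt
Canx: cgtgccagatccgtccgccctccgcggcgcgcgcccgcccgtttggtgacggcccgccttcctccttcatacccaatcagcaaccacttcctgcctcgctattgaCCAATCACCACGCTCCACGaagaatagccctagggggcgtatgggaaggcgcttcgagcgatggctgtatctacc
Calr: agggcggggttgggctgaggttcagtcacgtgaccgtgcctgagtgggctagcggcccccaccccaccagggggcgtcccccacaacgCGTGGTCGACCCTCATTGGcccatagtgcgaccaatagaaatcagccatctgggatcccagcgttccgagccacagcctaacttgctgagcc

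The motif matched in the windows of 17 of 11117 tested genes with a RefSeq promoter (0.153%), each window running from 250 bases before the start to 50 after. Hsp90b1 has 2 matches, on opposite strands. Over these 17 genes the median contrast was 0.072, with 1 called (Dnajc3), 4 positive at an unadjusted p under 0.05 (Dnajc3, Hspa5, Creld2 and Pdia6) and 0 negative, beside 6.00% positive and 6.36% negative over all genes. Dnajc3 was already called, and Hspa5, Creld2 and Pdia6 are folding genes described below, so these counts are not separate evidence. The 17 are not independent either. The matches of Alg12 and Creld2 are the same site, and those of Xlr3a and Xlr3b have the same letters. A match is only a run of letters and says nothing of binding in these samples. The heat shock element (GAA, 2 bases, TTC, 2 bases, GAA) was in 65 windows (0.585%), whose genes had a median contrast of -0.039, 1 positive and 4 negative at that level. The glucocorticoid response element was in 1 window. The cyclic AMP response element TGACGTCA was in 3.57% and the E-box CACGTG in 11.5% of the same windows; their genes had median contrasts of 0.0033 and -0.014.

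Dnajc3 was at 58.7, 59.9 and 65.8 CPM in CSS_control and at 62.6, 74.6 and 83.5 CPM in CSS. In T2D_control it was at 66.9, 81.7 and 89.7 CPM and in T2D at 58.2, 62.0 and 79.1 CPM. All 8 CSS mice were above and all 6 T2D mice below the mean of their controls, with overlap in both cohorts. The CSS change was 0.27 (adjusted p = 0.0358), the T2D change -0.27 (adjusted p = 0.406) and the contrast 0.54 ± 0.11 (95% interval 0.31 to 0.76).

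Other genes of protein folding did not pass in the contrast. The list of heat shock and unfolded protein response genes does not include Dnajc3. Of its 30 tested members 23 had a positive contrast and 13 of them an unadjusted p under 0.05, with 0 on the negative side, beside 6.00% positive and 6.36% negative over all genes. The list's median contrast was 0.24, from medians of 0.03 for CSS and -0.21 for T2D, where all genes had -0.0056. Hspa5, the chaperone BiP, had a contrast of 0.66 ± 0.23 (adjusted p = 0.249), with 158 to 227 CPM in CSS_control, 196 to 301 CPM in CSS, 181 to 404 CPM in T2D_control and 173 to 342 CPM in T2D. Sdf2l1, an ER chaperone subunit, had 1.14 ± 0.34 (adjusted p = 0.158), from 0.56 in CSS and -0.58 in T2D. Creld2, an ER stress-inducible protein, had 0.70 ± 0.21, Pdia6, a disulphide isomerase, 0.51 ± 0.16, and Hsp90b1, the ER form of Hsp90, 0.10 ± 0.10. The transcription factors Xbp1 and Atf6 had 0.45 ± 0.17 and 0.31 ± 0.15. Of the cytosolic heat shock proteins Hspa1b had 0.90 ± 0.32 and the co-chaperone Dnajb1 0.62 ± 0.19. Calr, a lectin chaperone, had 0.08 ± 0.14, and Canx, its membrane-bound relative that carries the motif too, had -0.15 ± 0.10. The CSS change of Canx, -0.25, passed (adjusted p = 0.0325), as the 1 of the 30 members to do so, near the 3.40% of all genes. RIN was lower in T2D than in its controls by 0.317, and the list's median contrast was 0.19 with RIN as a covariate.

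The mean log2 level of the folding list per library ran from 6.11 to 6.34 in CSS_control, from 6.14 to 6.48 in CSS, from 6.25 to 6.76 in T2D_control and from 6.09 to 6.57 in T2D. The T2D_control libraries were spread widely and reached the highest values. Both pairs of groups overlapped.

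Immediate early genes, the fast transcripts of active neurons, had a median contrast of 0.46 (CSS 0.21, T2D -0.30). Of 26 tested members 22 were positive, 9 at an unadjusted p under 0.05, and 1 member, Jun, a subunit of AP-1, was negative at that level (-0.38 ± 0.14), beside 6.00% and 6.36% of all genes; 0 passed. Arc, which acts in synaptic plasticity, had 69.2 to 149 CPM in CSS_control and 75.6 to 317 CPM in CSS, and 77.4 to 459 CPM in T2D_control and 74.1 to 165 CPM in T2D. Its contrast was 1.50 ± 0.56 (adjusted p = 0.275), and its spread was wide within every group. Bdnf, the neurotrophin that activity induces, had 0.83 ± 0.27 (adjusted p = 0.211), and the synaptic scaffold gene Homer1 had 0.81 ± 0.23 (adjusted p = 0.149). Fos had 0.63 ± 0.47 (adjusted p = 0.616). The list's median was 0.25 without T2D_control replicate 6, in which Igsf9b was also highest. That library's part in the contrast of other genes was not tested beyond these fits.

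**Figure D4:**
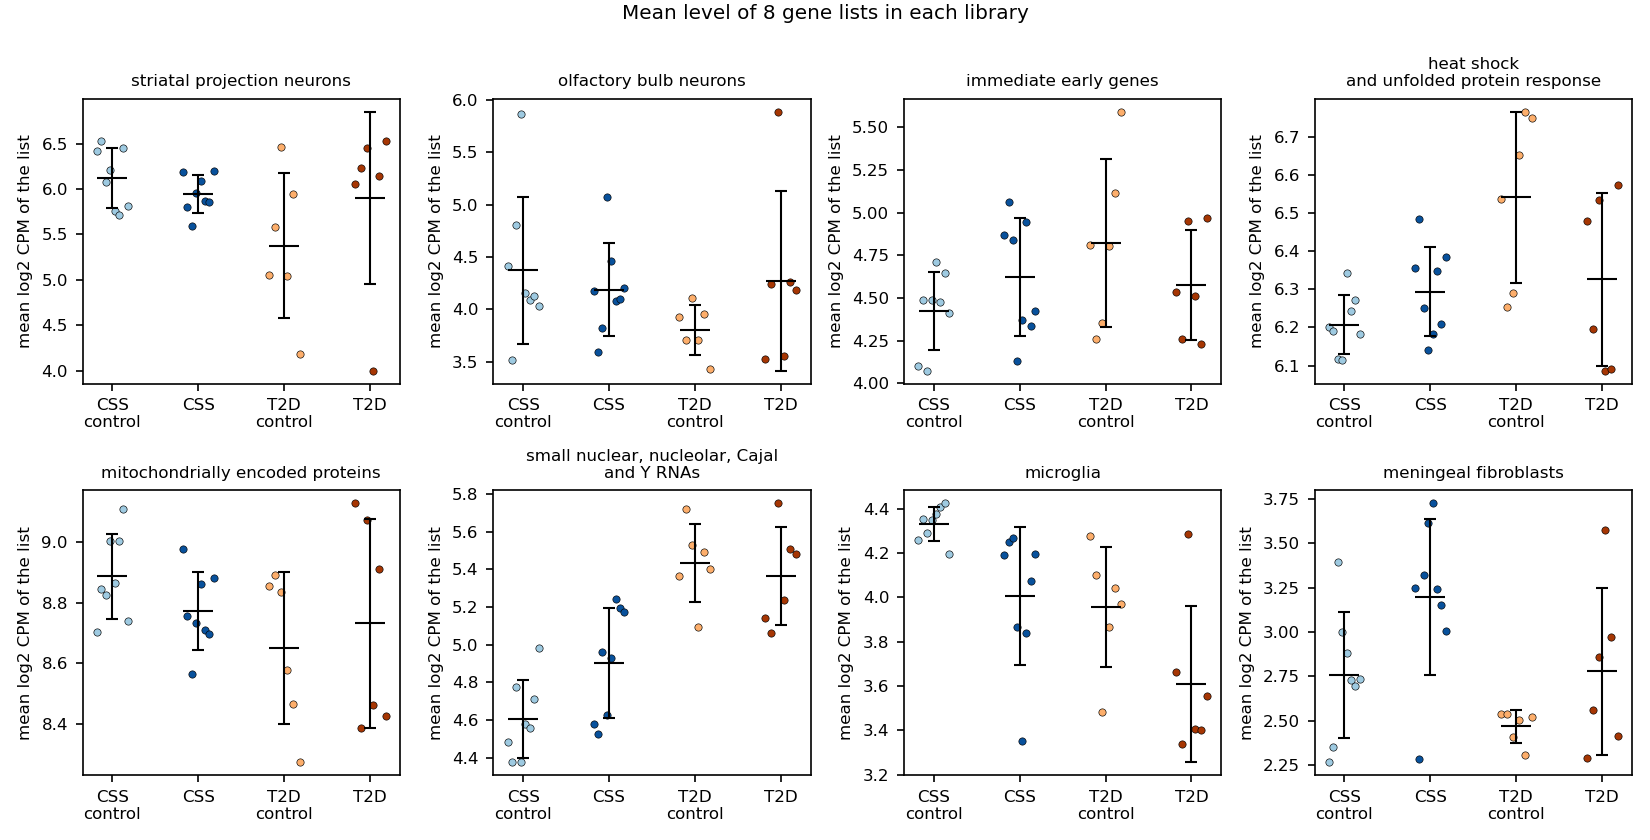
Mean log2 CPM of 8 gene lists in each library (vertical axes differ and do not start at 0), by group, with the mean ± SD (n = 8, 8, 6 and 6). T2D replicate 3 stands highest in olfactory bulb markers among the T2D mice, and T2D replicate 4 lowest in striatal markers.

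Signalling brakes related to Spred1 were looked up after its values were seen. Spry4, a Sprouty inhibitor of receptor tyrosine kinase signalling, had a contrast of 0.97 ± 0.21 (adjusted p = 0.0672) and a CSS change of 0.68 that passed (adjusted p = 0.00783). Spred2 had 0.53 ± 0.16 (adjusted p = 0.162) and Spred3 0.42 ± 0.15 (adjusted p = 0.265). Spry1, Spry2 and Spry3 had -0.15 ± 0.18, 0.23 ± 0.14 and 0.33 ± 0.19. Just outside the threshold, the 3 genes of smallest p were Zfp46, with -0.66 ± 0.14 (adjusted p = 0.0554), the Cajal body RNA Scarna6, with 1.26 ± 0.27 (adjusted p = 0.0624), and Spry4. Hrh1, the histamine H1 receptor, had 0.97 ± 0.21 (adjusted p = 0.0672), and Prkab1, a regulatory subunit of the energy sensor AMPK, -0.72 ± 0.17 (adjusted p = 0.077). Another subunit, Prkab2, had 0.30 ± 0.11 (adjusted p = 0.255), of the opposite sign. None of these related genes passed.

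The genes that passed for CSS had T2D changes centred near 0. The 186 genes that rose in CSS had a median CSS change of 0.34 and a median T2D change of 0.00030, with 93 of 186 positive in T2D. The 320 that fell had medians of -0.31 and -0.030, and 208 (65.0%) were negative in T2D, where 50.1% of all genes were positive. The CSS change is a term of the contrast, so these genes were bound to stand out in it: 503 of the 506 had a contrast with the sign of their CSS change, 352 (69.6%) an unadjusted contrast p under 0.05, beside 12.4% of all genes, and 10 passed, beside 0.0806%. Cetn3, a centriole protein, for example had a CSS change of -0.58 and a T2D change of -0.0066, and Scarna6 1.18 and -0.083. Pdap1, a phosphoprotein, had -0.52 and -0.11, and Dnajc8, a splicing-related DnaJ protein, -0.54 and -0.15. The T2D groups of these 4 genes overlapped. Across the 14888 genes the 2 changes, which share no library, had a Pearson correlation of 0.045 and a Spearman correlation of 0.050, a description across genes that are not independent.

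Small nuclear, nucleolar, Cajal body and Y RNAs had a median contrast of 0.40, from 0.43 in CSS and -0.0065 in T2D. Of 23 tested, 1 passed (Snora74a), 9 were positive at an unadjusted p under 0.05 and 0 negative, and 7 passed as higher in CSS. Of all genes 0.0806% passed, 6.00% were positive and 6.36% negative at that level, and 1.25% passed as higher in CSS. Scarna6 had 1.98 to 3.84 CPM in CSS_control, 2.76 to 8.03 CPM in CSS, 5.82 to 10.2 CPM in T2D_control and 6.34 to 8.97 CPM in T2D. Scarna10 had a contrast of 1.07 ± 0.31 (adjusted p = 0.158), and Rny3, a Y RNA, 1.02 ± 0.30 (adjusted p = 0.166).

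**Figure D5:**
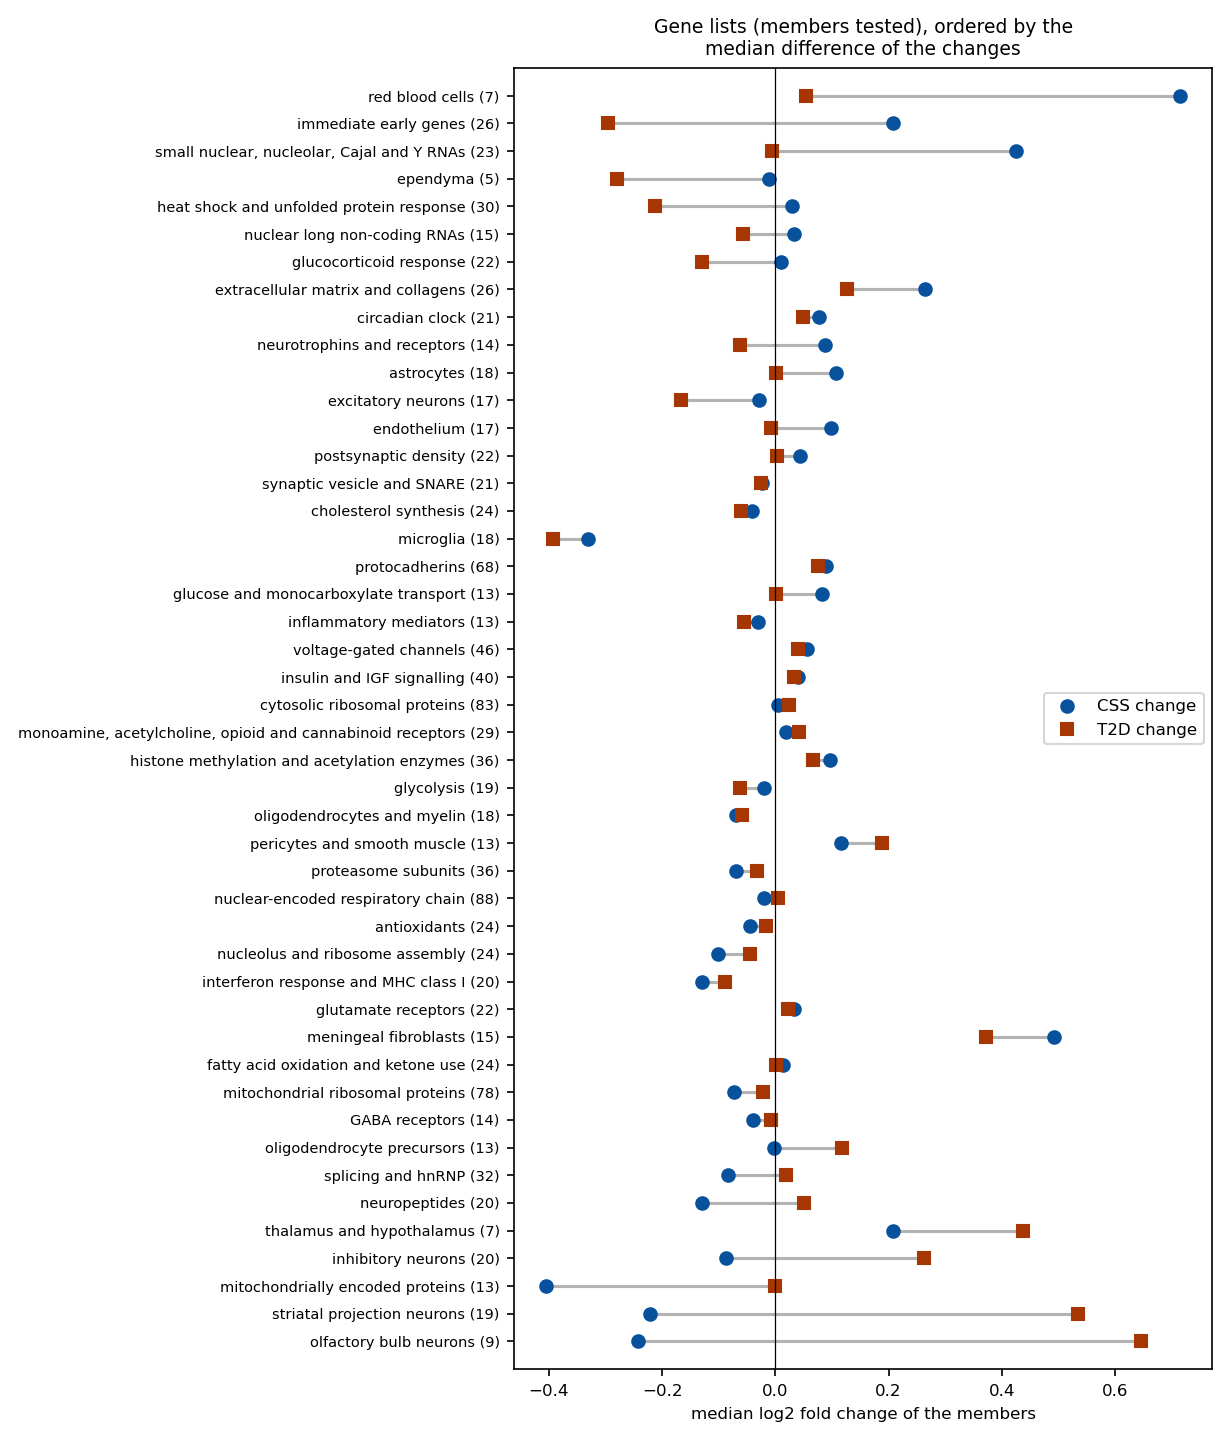
Median CSS change (circles) and T2D change (squares) of each gene list with at least 5 tested members, on the log2 scale, with lists ordered by median contrast and the number of members in brackets. The lists at the top have a higher CSS change, those at the bottom a higher T2D change, and most lie close to equality.

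Mitochondrially encoded proteins had a negative median contrast of -0.40 with medians of -0.40 in CSS and -0.00032 in T2D. Of 13 members 6 were negative at an unadjusted p under 0.05, 5 passed as lower in CSS and 0 for the contrast, beside 6.36%, 2.15% and 0.0806% of all genes. mt-Nd6, a complex I subunit, had -0.76 ± 0.23 (adjusted p = 0.16), and mt-Cytb, of complex III, -0.47 ± 0.16 (adjusted p = 0.225). The list was mixed. The contrast was positive for mt-Nd3 (0.50 ± 0.27, adjusted p = 0.461), mt-Nd4l (0.26 ± 0.65), mt-Co2 (0.21 ± 0.71) and mt-Co3 (0.10 ± 0.23). Their CSS changes were 0.40, -0.037, 1.28 and 0.22, and did not pass. The mitochondrial share of counts was 5.06 to 8.24% in CSS, 6.81 to 8.84% in CSS_control, 5.19 to 8.16% in T2D and 4.99 to 7.05% in T2D_control. Its mean differed by -0.778 percentage points in CSS and by 0.762 points in T2D (difference of the differences -1.54, two-sided exact permutation test, p = 0.0360, adjusted p = 0.144 over 4 library values). The share takes in mitochondrial RNA beyond the 13 members and is no measure of them. The member of highest level, mt-Co1, had means of 13357 CPM in T2D and 13733 CPM in T2D_control. In CSS and CSS_control its means were 15940 and 18465 CPM. Nuclear-encoded respiratory chain genes had a median contrast of -0.02 over 88 members.

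Markers of neighbouring tissue did not pass in the contrast. Yet all 19 striatal projection neuron markers and all 9 olfactory bulb markers had a negative contrast, with medians of -0.76 and -0.84. Both cohorts entered these: the CSS medians were -0.22 and -0.24 and the T2D medians 0.53 and 0.65. At an unadjusted p under 0.05 there were 1 of 19, near the 6.36% of all genes that were negative at that level, and 5 of 9. Summed striatal levels were 683 to 3235 CPM in T2D, 849 to 2994 CPM in T2D_control, 1702 to 2596 CPM in CSS and 1876 to 3647 CPM in CSS_control. The olfactory median was -0.39 without T2D replicate 3 and -0.42 without CSS_control replicate 4. With the striatal score as a covariate the contrasts of the 12 genes were 87.8 to 103% of their values without it, with an adjusted p of 0.144 for each, so 0 of the 12 passed; the part of dissection in the 12 calls was not tested further. In bulk tissue fewer cells of a type and less RNA per cell cannot be told apart.

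Inhibitory neuron genes had a median contrast of -0.30, with 17 of 20 negative, 2 at an unadjusted p under 0.05 (6.36% of all genes) and 0 called. Sst, the somatostatin of a class of interneurons, had 67.1, 76.0 and 88.4 CPM in CSS_control and 50.8, 63.1 and 73.5 CPM in CSS, and its CSS change of -0.30 passed (adjusted p = 0.0264). In T2D_control it had 59.8, 64.3 and 74.4 CPM and in T2D 61.8, 64.7 and 87.4 CPM, and the contrast was -0.41 ± 0.12 (adjusted p = 0.154). The list's median was -0.19 without T2D replicate 3. Dlx6, a transcription factor that striatal and olfactory neurons share, was the other member, with -0.90 ± 0.39. Neuropeptide genes had a median of -0.20 over 20 members, which ran from -0.27 to -0.13 over the fits that leave out 1 library.

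Stress hormone and clock genes did not pass in the contrast. Among glucocorticoid response genes 6 of 22 were positive and 0 negative at an unadjusted p under 0.05 (6.00% and 6.36% of all genes), with a median of 0.14 that was 0.073 without T2D_control replicate 6 and 0.094 without T2D_control replicate 4. Tsc22d3, a glucocorticoid-induced leucine zipper protein, had 0.49 ± 0.15 (adjusted p = 0.181), whereas Fkbp5, a chaperone of the receptor, had 0.049 ± 0.20 (95% interval -0.37 to 0.46), and the receptors Nr3c1 and Nr3c2 0.29 ± 0.13 and -0.13 ± 0.12. Per2, a clock gene, was at 26.5, 28.6 and 33.9 CPM in CSS_control and at 27.8, 54.2 and 81.1 CPM in CSS, a change of 0.81 that passed (adjusted p = 0.0119). It was at 26.7, 43.7 and 65.7 CPM in T2D_control and at 26.9, 35.5 and 51.7 CPM in T2D, and its contrast of 1.07 ± 0.27 (adjusted p = 0.123) was not called. Its relatives Per1 and Per3 had 0.27 ± 0.26 and 0.062 ± 0.15, and the clock-controlled factors Dbp and Nfil3 -0.70 ± 0.19 and 0.63 ± 0.20; the time of day of tissue collection is not given in the labels used here.

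No gene of insulin and glucose handling passed in the contrast. Over 40 insulin and IGF signalling members the median contrast was 0.014, with 4 positive at an unadjusted p under 0.05 and 0 negative, where all genes had 6.00% and 6.36%. The insulin receptor gene Insr had 0.067 ± 0.11 (95% interval -0.15 to 0.29), the IGF1 receptor gene Igf1r 0.22 ± 0.10 (adjusted p = 0.386), and Irs2, an adaptor of both, 0.56 ± 0.20 (adjusted p = 0.252). Slc2a1 and Slc2a3, the glucose carriers of vessels and of neurons, had 0.28 ± 0.12 and 0.11 ± 0.11, with intervals of 0.034 to 0.53 and -0.12 to 0.34. Glycolysis genes had a median of 0.0072 over 19 members. Pfkfb3, the member of smallest p, had 0.60 ± 0.17 (adjusted p = 0.147), with a CSS change of 0.41 that passed (adjusted p = 0.0365). Hk2 and Gapdh, the next by p, had 0.44 ± 0.23 and -0.16 ± 0.094. Txnip, which glucose induces, had -0.013 ± 0.18 (95% interval -0.38 to 0.35).

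Microglial genes had negative medians of -0.33 in CSS and -0.39 in T2D, with a median contrast of 0.028. At an unadjusted contrast p under 0.05 there were 0 of 18 (12.4% of all genes). C1qa, a complement subunit, had 32.4, 35.5 and 40.6 CPM in CSS_control and 15.4, 28 and 31.0 CPM in CSS, and 19.7, 26.4 and 32.8 CPM in T2D_control and 13.6, 17.2 and 31.6 CPM in T2D. The T2D range includes replicate 3, at 31.6 CPM the highest of the 6. The contrast was -0.013 ± 0.21, with a 95% interval of -0.45 to 0.42 that is wide enough to hold a difference in either direction. The list's median contrast was 0.22 without T2D replicate 3. Meningeal fibroblast genes had 0.49 in CSS and 0.37 in T2D, with 1 of 15 positive at an unadjusted p under 0.05 in the contrast (6.00% of all genes). Col1a1, a collagen, was the member that passed for CSS (1.13, adjusted p = 0.0092), where 1.25% of all genes passed as higher. It had a T2D change of 0.55 and a contrast of 0.58 ± 0.36 (adjusted p = 0.531).

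Of 24 nucleolar and ribosome assembly members 5 were negative and 0 positive at an unadjusted p under 0.05 (6.36% and 6.00% of all genes), and 4 passed as lower in CSS (2.15%). Ncl, nucleolin, had 189, 209 and 234 CPM in CSS_control and 130.5, 146 and 175 CPM in CSS, without overlap, and 117, 129.7 and 176 CPM in T2D_control and 110.1, 130.8 and 157 CPM in T2D. Its contrast was -0.44 ± 0.13 (adjusted p = 0.149). Of 32 splicing and hnRNP members 6 were negative and 2 positive at that level, the latter near the share of all genes, and Cirbp, a cold-inducible RNA-binding protein, had -0.58 ± 0.15 (adjusted p = 0.128).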

How the data were processed

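Per the labels' protocols, frontal cortex of 1 hemisphere per mouse was kept in RNAlater, RNA came from a Maxwell RSC kit, and libraries were made with TruSeq Stranded Total RNA after Ribo-Zero Gold depletion. The authors deposited estimated counts per gene, 1 table per cohort; the submitters' processing notes name Salmon 1.1.0 and mm10. For summing of transcripts to genes, length scaling and use of strand, the method is not given in the sources used here. Each listed gene reached 1.01 CPM in 8 (CSS table) or 6 (T2D table) libraries. Groups and replicate numbers came from the titles.

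Tables were joined on Ensembl identifiers, and values rounded to whole numbers. One edgeR 4.0.16 robust quasi-likelihood fit in R 4.3.3 over 28 libraries (4 group means, TMM, edgeR's default filter, which removed 0 genes) gave the CSS change, the T2D change and their difference, with Benjamini-Hochberg adjustment over 14888 genes and a threshold of 0.05; the procedure was tested on simulated data. Adjusted p-values are from this fit unless another tool is named. Each SE was derived from the test, as the size of the log2 fold change over the square root of its F statistic. The SEs and the intervals built on them are therefore approximate, and can be less exact for a value near 0. Levels are CPM after TMM scaling. The precision of a low gene is limited by its counts. Alternatives used DESeq2 1.42.0, limma 3.58.1 and sva 3.50.0. Coordinates and exon overlaps came from GENCODE M21 (99.8% of identifiers matched), promoter sequences from RefSeq (GRCm38.p6).

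The members and the 48 gene lists were chosen with earlier results of these data known. Genes named were those called, if their symbol was no predicted model and their mean log2 CPM reached 1 (the 12 largest per direction), the 5 of smallest p per direction, the 3 members of smallest p of a list with a call, and 28 fixed genes, of which 27 were tested. Further list members, related genes and genes just past the threshold were named after their values were seen. A called gene is not reported here. Lists are described by counts and medians only. Scores are means of log2 CPM with a prior count of 2.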

Additional observations from a re-analysis of the deposited data

Results flagged for a closer look

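Of the genes whose CSS and T2D changes differed by the test of the difference itself, 11 are given here. Contrasts were 0.49 (9330159F19Rik), 0.60 (Spred1), 1.12 (Snora74a), 0.77 (Igsf9b), 0.72 (Cdh19), 0.54 (Dnajc3) and 0.63 (Sgsm1) on the log2 scale. They were -0.50 for C2cd2l, -0.40 for Coro1b, -0.55 for Sh3bgrl2 and -0.74 for Gpr12.

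In 18 groups of libraries, 8.04% of those examined, 1 library lay far from the others. The rule's level of about 1 in 20 holds for independent, normally distributed values. These values come from the same mice, so no excess is read from the share. T2D replicate 3 was high in C1qa (31.6 CPM, the others 13.6 to 18.8), Sh3bgrl2 (46.7 CPM, the others 36.4 to 40.2) and in the scores of microglia (4.28, the others 3.34 to 3.66) and olfactory bulb neurons (5.89, the others 3.52 to 4.26). T2D replicate 4 was low in the striatal projection neurons score (4.0, the others 6.06 to 6.52). T2D_control replicate 6 was high in Igsf9b (342 CPM, the others 225 to 261) and Slc2a1 (57.3 CPM, the others 37.9 to 44.6). T2D_control replicate 3 was high in Insr (108 CPM) and Ncl (176 CPM), and T2D_control replicate 2 low in Crh (1.94 CPM).

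In the CSS cohort, CSS replicate 5 was high in Igf1r (161 CPM) and low in the microglia score (3.35), and CSS replicate 2 low in Gfap (38.2 CPM). CSS_control replicate 2 had the highest total, 37.5 M, and CSS_control replicate 3 was low in Per1 (34.5 CPM). CSS_control replicate 4 was high in Gad1 (427 CPM), and CSS_control replicate 8 in Scarna6 (3.84 CPM) and RIN (10.0).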

How the results depend on the processing

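The number of genes called in the contrast (12; 7 higher, 5 lower) was the same with DESeq2 size factors in edgeR, with no filter and without mitochondrial genes. It was 6 (3 and 3) with upper quartile scaling, 23 (13 and 10) with at least 5 CPM in 6 libraries, 138 (82 and 56) with each cohort fitted by itself and 103 (65 and 38) with DESeq2. It was 0 with a non-robust fit, a RIN covariate, 1 surrogate variable, limma-voom, limma-voom with a weight per group, a striatal score covariate or CSS_control 5 to 8 alone, 150 (73 and 77) with CSS_control 1 to 4 alone, 1 (1 and 0) with striatal and activity scores, and 10 with 1 lower without T2D replicates 3 and 4. The fits with 1 or both scores and the removal of both T2D libraries were chosen after seeing the data. The causes were not tested.

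Leaving out 1 library gave 0 to 32 calls (0 to 21 higher, 0 to 11 lower). The CSS change passed for 181 to 681 genes and the T2D change for 0 to 4. The CSS change passed for 800 genes with 1 surrogate variable, 941 with group weights, 824 with DESeq2, 0 with CSS_control 5 to 8 alone and 784 with CSS_control 1 to 4 alone. The T2D change passed for 5 genes with DESeq2 and for 2 without T2D replicates 3 and 4.

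With the replicate number as a block within each cohort 32 genes passed (23 higher, 9 lower), 9 of them among the 12. The labels used here do not state that the numbers pair the mice. Same-numbered libraries deviated together at r of -0.169 to 0.327 in the CSS cohort (3 of 8 pairs over 0.1, 2 libraries closest to their own number). In the T2D cohort r was 0.0067 to 0.158 (1 of 6, 0 closest). So few pairs cannot settle whether mice were paired.

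Of 1885 pairs of a named gene and an alternative, 1847 kept the sign of the contrast and 38 did not, all of genes not called. The called genes were chosen by their contrast in the same libraries, so nothing is read from their kept signs. Slc2a3 had -0.0058 with RIN and -0.012 with both scores, C1qa 0.012 with the replicate block and 0.0028 with CSS_control 1 to 4 alone, Slc17a7 -0.057 and Txnip 0.0057 with 1 surrogate variable, and Cx3cr1 0.023 with CSS_control 1 to 4 alone. With both scores Fos had -0.11 and Per1 -0.11. Without T2D replicates 3 and 4, Nr3c2 had 0.020, Gfap 0.30, Cx3cr1 0.016, Txnip 0.18 and C1qa 0.18. Over the fits that leave out 1 library, Txnip ran from -0.11 to 0.062, C1qa from -0.092 to 0.20, Cx3cr1 from -0.15 to 0.029, Gfap from -0.21 to 0.10 and Fkbp5 from -0.14 to 0.15.

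Of 2207 pairs of a list and an alternative 13 medians moved by more than the spread between libraries. Inhibitory neurons had -0.12 with 1 surrogate variable and -0.15 with CSS_control 5 to 8 alone, cholesterol synthesis -0.077 with 1 surrogate variable, insulin and IGF signalling 0.073 and glutamate receptors 0.037 with CSS_control 5 to 8 alone, and endothelium 0.24 with CSS_control 1 to 4 alone. With the striatal score, striatal projection neurons had 0.0093 and GABA receptors -0.0066; with both scores, striatal projection neurons had -0.0011, immediate early genes 0.014 and neuropeptides -0.028. A list adjusted for its own score, as the striatal and immediate early lists were in these fits, goes to about 0 by construction. Red blood cells had 0.99 without T2D replicates 3 and 4, and choroid plexus ran from -0.90 to 0.19 over the fits that leave out 1 library.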

Other observations

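Further lists add the following values, none of which passed in the contrast. Extracellular matrix and collagen genes had medians of 0.26 in CSS and 0.13 in T2D, with 3 of 26 members positive and 0 negative at an unadjusted contrast p under 0.05 (6.00% and 6.36% of all genes); 4 passed as higher in CSS (1.25%). Red blood cell genes had a median contrast of 0.53 over 7 members, which was 0.28 without CSS replicate 6 and 0.83 without T2D replicate 4. Plin4, a lipid droplet protein that glucocorticoids induce, had the largest contrast of its list, 1.62 ± 0.49 (adjusted p = 0.168), from 0.81 in CSS and -0.81 in T2D. Its level was 2.03 to 4.55 CPM in CSS_control, 3.63 to 9.52 CPM in CSS, 5.25 to 19.4 CPM in T2D_control and 3.16 to 18.3 CPM in T2D, with overlap in both cohorts.

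The tyrosine hydroxylase gene Th, which makes dopamine and is high in olfactory bulb, had the smallest p of the olfactory list, with a contrast of -2.13 ± 0.78 (adjusted p = 0.264). Coro7, a coronin like Coro1b, had -0.24 ± 0.11 (adjusted p = 0.383). It was looked up after the values were seen and says nothing of the other coronins, which are not given here.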
